A study of Mus musculus with 24 samples.

Results

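Keratin genes are described here across 24 arrays of embryonic mouse jaw tissue. They were chosen by symbol alone, as every gene named Krt followed only by digits, with 1 probe set per gene, the one with the highest mean over all arrays. This gave 44 keratins among 18193 genes measured on the array. Of these, 6 belong to simple epithelia, 3 to the basal layer and 12 to the suprabasal layers of stratified epithelia, and 23 to hair follicle and other structures. In all, 32 keratins passed the filter on low values and were tested: 5 simple, 3 basal, 10 suprabasal and 14 other keratins. To pass, a probe set had to exceed the 40th percentile of its array's values, a log2 level of 6.33 to 6.47, on at least 3 arrays.

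Keratins are the intermediate filament proteins of epithelial cells, and each filament is built from pairs of an acidic type I and a basic type II chain. Single-layered epithelia make Krt8 and Krt18, dividing basal cells of stratified epithelia make Krt5 and Krt14, and cells that leave the basal layer switch to Krt1 and Krt10 in skin-like epithelium or to Krt4 and Krt13 in moist oral epithelium. In the jaws of an embryo they therefore mark the oral, nasal and skin epithelium that covers the mesenchyme, bone and cartilage. By the RefSeq table of assembly GRCm38.p6, 22 of the 44 genes lay on the chromosome of Krt14, where the type I cluster is, and 22 on that of Krt8, where the type II cluster is and where Krt18, a type I gene, also sits.

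The study dissected the mandible (lower jaw) and maxilla (upper jaw) of embryos at embryonic day 14.5, on a C57B6 background, and cut each into a distal and a proximal end. Parents carrying Wnt1cre;Alk5fl/+ were crossed to Alk5fl/fl partners. Mutant embryos, which lose Alk5 (Tgfbr1, the type I receptor for TGF-beta) where Wnt1-Cre is active, were picked out by their split palate and skull vault defect. Control embryos were littermates labelled only as control, so which of the floxed and Cre alleles they carried is not given. Each of the 8 groups, control and mutant for distal mandible, proximal mandible, distal maxilla and proximal maxilla, held 3 arrays. Wnt1-Cre acts in the neural crest lineage, which forms the mesenchyme of the face, and the surface epithelium that makes keratins comes from outside that lineage. The labels call the compartment bone, and of 7 bone markers Col1a1, Sp7, Ibsp and Alpl lay above the filter level on 24 of 24 arrays. Phex and Omd did so on 23 and Dmp1 on 17. The epithelial markers Cdh1 and Epcam, and Trp63 of basal cells, also lay above that level on 24 of 24 arrays, so epithelium was in every sample. Of the other epithelial identity genes, Grhl1, Grhl3 and Sfn did so on 23 arrays, Ovol1 on 19 and Ehf on 17.

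RNA came from whole pieces of tissue, so fewer epithelial cells and less keratin RNA per cell cannot be told apart. The median log2 signal of an array was 7.03 to 7.12. Whether arrays with different numbers came from different embryos, or from pools, is not stated, and p-values then measure only the spread between these arrays. The targeted gene, Tgfbr1, was not lower in mutants: its log2 level was 11.92 to 12.36 on the 12 control arrays and 12.20 to 12.57 on the 12 mutant arrays, and over the 4 regions it was higher in mutants by 0.26 ± 0.04 (limma adjusted p = 0.000146), and by 0.30 ± 0.04 (adjusted p = 5.6e-06) without the pair of arrays named next. Where its probe set lies relative to the deleted part of the gene is not given in the sources used here, so this level does not check the genotype labels, and control and mutant mean the arrays so labelled throughout. Both maxilla arrays of mutant number 3 stood apart from the other mutant maxilla arrays. Over all genes the distal array correlated with the mutant distal mandible at a mean r of 0.9903 and with its own group at 0.9898, and the proximal array with the mutant proximal mandible at 0.9913 and with its own group at 0.9882. In the proximal array the mean log2 level of 10 muscle genes was 10.60 against 8.73 and 8.64 in the other mutants, that of 10 cartilage genes 7.66 against 9.95 and 10.31 and that of 9 neuron genes 9.34 against 10.86 and 10.44. In the distal array that of 7 bone genes was 11.03 against 9.25 and 9.13. Changes in the mutant maxilla are therefore given with and without this pair, a comparison added after the data were seen. Other arrays that deviated were kept. Control distal maxilla number 3, the highest array for Krt1, Krt10 and Krt15, had cartilage genes at 9.29 against 11.41 and 11.99. Its mean r with its own group was 0.9900. Mutant proximal mandible number 3 had bone genes at 11.29 against 9.39 and 9.52. Control distal maxilla numbers 1 and 2 and mutant proximal maxilla numbers 1 and 2 also correlated best with another maxilla group. A log2 change is a difference of group means with its standard error (SE) from limma, a level is a mean ± SD of 3 arrays, and a gene was called at a limma adjusted p under 0.05.

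**Figure D1:**
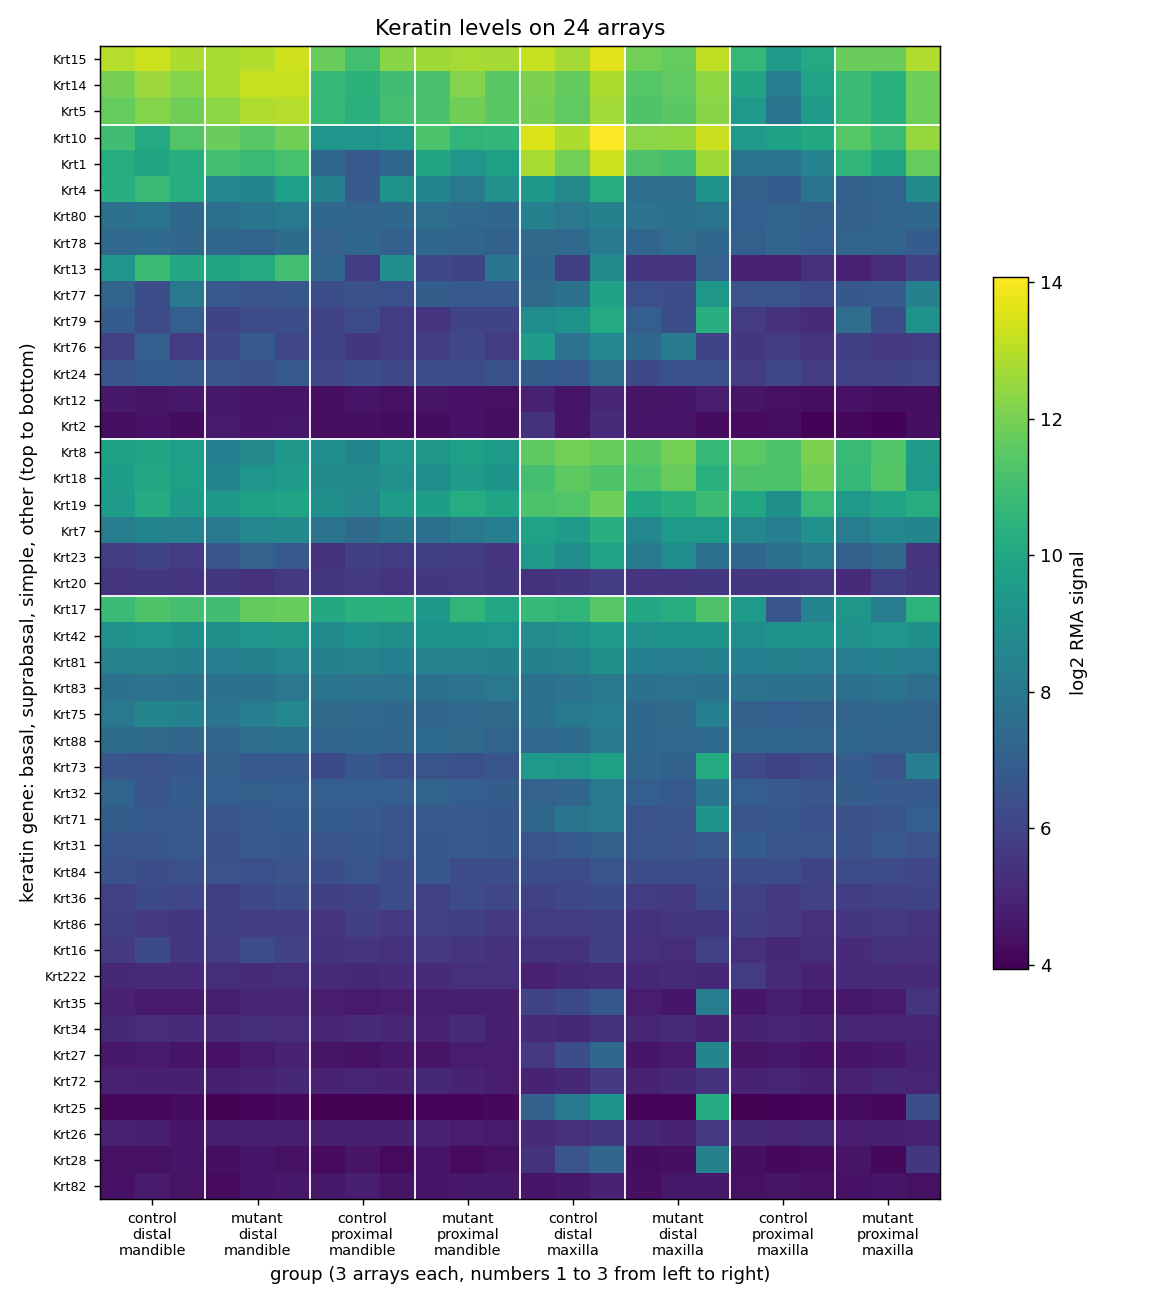
Log2 RMA signal of the 44 keratins (rows: basal, suprabasal, simple and other, separated by white lines) on 24 arrays (columns: 8 groups of 3, numbers 1 to 3 from left to right). The basal keratins and Krt7, Krt8, Krt18 and Krt19 lay above the filter level on every array, and the inner root sheath keratins Krt25, Krt27 and Krt28 stood out in the 3 control distal maxilla arrays and in mutant distal maxilla number 3.

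In control embryos many keratins differed along each jaw, and all that were called were higher distally. In the control maxilla 19 of 32 tested keratins (59.4%) were higher distally and 0 lower, where 4.9% of all 13942 tested genes were called higher and 5.99% lower. In the control mandible 7 (21.9%) were higher distally and 0 lower, against 2.91% higher and 2.54% lower among all genes. The median change of the 32 keratins was 1.57 along the maxilla and 0.51 along the mandible, and the median of all tested genes was -0.02 and -0.01. Between the jaws, 3 keratins were higher in the control mandible and 10 in the control maxilla, where 16.7% of all genes were called higher in the mandible and 18.1% in the maxilla. The 19 include Krt25 and Krt28, and the 10 include Krt25. These genes passed the filter only with the help of distal maxilla arrays on which they were high.

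Genotype changed few keratins at this threshold, and in the fit to all arrays each regional rise that was called was at a proximal end. In the proximal maxilla 6 of 32 (18.8%) were higher in mutants and 0 lower, against 5.75% higher and 4.79% lower among all genes. The 6 were Krt1, Krt5, Krt10, Krt14, Krt15 and Krt79. In the proximal mandible Krt1 and Krt10 rose and 0 fell, against 9.56% higher and 10.4% lower among all genes, so the keratins' 6.25% was below the share of all genes. For the distal mandible limma called 0 of 32, with 4 at an unadjusted p under 0.05, where 8.02% of all genes were called higher and 7.98% lower. With array weights Krt1, Krt5, Krt10 and Krt23 were called higher there and Krt4 and Krt8 lower, where 17% of all genes were called higher and 13.6% lower. With the 6 arrays fitted alone Krt1, Krt5, Krt14 and Krt23 were called higher and Krt4 and Krt8 lower, where 12.1% of all genes were called higher and 11.4% lower. Distally in the maxilla 1 fell, Krt24, and 0 rose, where 1.12% of all genes were called lower and 1.84% higher, and 12 keratins had an unadjusted p under 0.05. Counts at an unadjusted p stand here and below without the share of all genes at that threshold, so they are description only. The median change of the 32 keratins was 0.05 and 0.14 at the distal and proximal end of the mandible and -0.49 and 0.12 at those of the maxilla, while that of all tested genes was 0.04, 0.04, 0.04 and 0.03. Without the maxilla arrays of mutant number 3 the keratin medians in the maxilla were -0.78 and 0.07.

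Markers of other tissues also differed in the regions where keratins rose, and in the distal mandible, where the fit to all arrays called 0 keratins. In the mutant proximal maxilla 9 of 10 cartilage genes and 3 of 7 bone genes fell and 0 rose (5 and 5 without the pair). The log2 of the summed cartilage signal was 16.03 to 16.04 on control and 11.98 to 14.54 on mutant arrays there, and that of bone 13.35 to 14.39 and 11.86 to 12.68. In the mutant proximal mandible 6 of 7 bone genes, 2 of 10 cartilage, 2 of 10 muscle, 4 of 10 endothelial and 4 of 10 macrophage genes fell, and 2 of 9 neuron genes rose. The summed bone signal was 15.38 to 15.47 in controls and 13.21 to 14.61 in mutants there. Limma called 0 muscle, neuron, endothelial or macrophage genes in the proximal maxilla, with 0, 0, 1 and 2 at an unadjusted p under 0.05. In the distal mandible the mean log2 level of bone genes was 11.42 in controls and 8.75 in mutants. Cartilage genes had 11.33 and 8.89, muscle 10.68 and 8.23, and macrophage 8.79 and 8.07. Endothelial genes had 9.71 and 9.56 there, and neuron genes 8.46 and 8.61. The part of these tissues in the keratin changes was not tested.

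Averaged over the 4 regions, 5 keratins (15.6%) were higher in mutants, Krt1, Krt5, Krt10, Krt14 and Krt15, and 0 lower, against 25.2% of all genes higher and 15.3% lower. This mean and the differences between jaws and between ends are built from the same 24 arrays as the regional comparisons and are no separate evidence. The genotype effect differed between the ends for Krt1 and Krt15, both lower distally, where 0.0717% of all genes were called lower distally and 0.043% higher. It differed between the jaws for Krt23, higher in the mandible, where 2.45% of all genes were called higher and 4.31% lower.

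**Figure D2:**
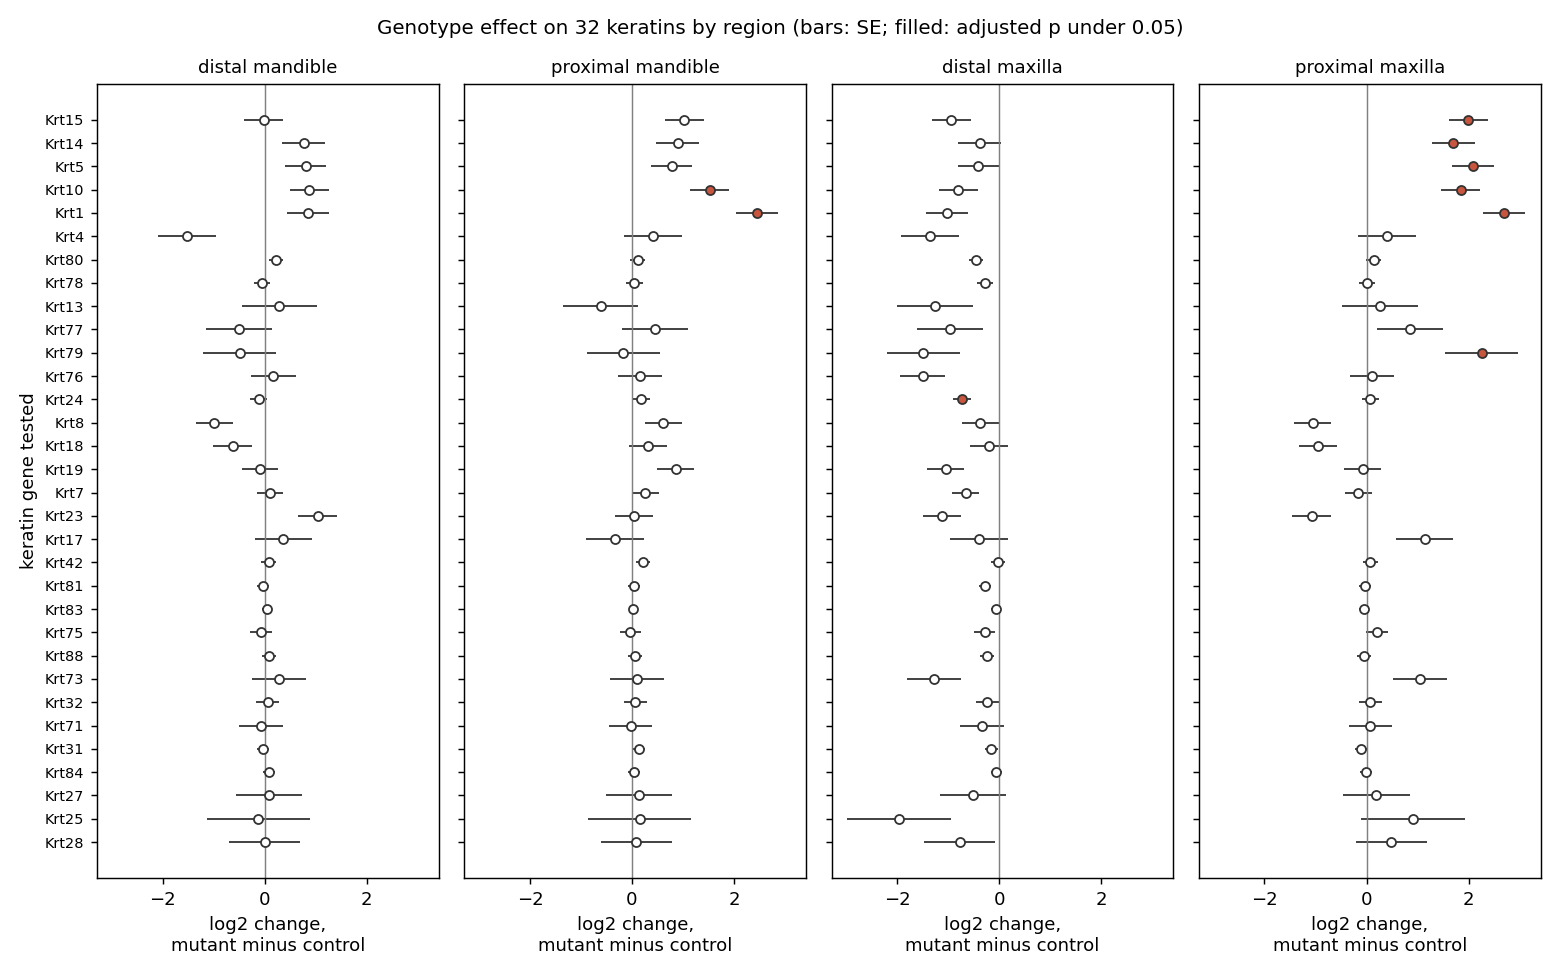
Log2 change, mutant minus control, of the 32 tested keratins in each of the 4 regions, with SE bars from the limma fit to 24 arrays and filled points at an adjusted p under 0.05. The mandible has 0 filled points distally and 2 proximally, the maxilla 1 distally and 6 proximally, and only that of Krt24 lies below 0.

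The 250 bases before the annotated start of Krt5 and Krt14, whose proteins pair in basal cells, are shown because these genes rose together in the mutant proximal maxilla, with Krt10, a suprabasal keratin that rose with them. They are from RefSeq, build GRCm38.p6, read 5′ to 3′ on the strand of the gene, and Krt15 and Krt1 had no entry in that table. Krt5 is at chr15:101712906-101713155, minus strand, Krt14 at chr11:100206031-100206280, minus strand and Krt10 at chr11:99389365-99389614, minus strand.
Krt5: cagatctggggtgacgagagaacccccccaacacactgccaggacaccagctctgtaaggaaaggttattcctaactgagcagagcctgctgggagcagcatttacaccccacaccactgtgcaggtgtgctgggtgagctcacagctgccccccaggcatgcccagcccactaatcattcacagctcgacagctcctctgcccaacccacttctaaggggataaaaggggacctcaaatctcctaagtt
Krt14: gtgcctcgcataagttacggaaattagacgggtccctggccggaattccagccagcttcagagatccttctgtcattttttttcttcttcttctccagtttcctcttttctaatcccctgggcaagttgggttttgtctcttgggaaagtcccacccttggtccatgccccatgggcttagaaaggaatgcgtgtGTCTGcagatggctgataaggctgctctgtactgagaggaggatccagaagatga
Krt10: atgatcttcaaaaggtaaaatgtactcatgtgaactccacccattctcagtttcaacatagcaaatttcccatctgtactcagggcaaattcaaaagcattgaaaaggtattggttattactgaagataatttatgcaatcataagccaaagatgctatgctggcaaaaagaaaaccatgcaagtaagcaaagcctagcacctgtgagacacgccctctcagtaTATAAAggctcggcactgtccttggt
Capitals mark matches, on either strand, to the motifs TATAAA (the TATA box), GCCNNNGGC (bound by AP-2 factors, which act in epidermis), CAGAC (bound by SMAD proteins, the mediators of TGF-beta receptors) and GGGCGG (the GC box). Krt10 holds a TATA box that starts 26 bases before the annotated start, Krt14 holds CAGAC on the reverse strand, and Krt5 holds none of the 4 motifs in this window. Of 32851 such windows of all genes, 12.4% hold TATAAA, 13.7% GCCNNNGGC, 42.2% CAGAC and 32.7% GGGCGG. Among the 32 windows of 31 keratins, 15 hold TATAAA, 3 GCCNNNGGC, 16 CAGAC and 2 GGGCGG.

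Krt15, a type I keratin of basal cells, read 10.72, 9.52 and 10.16 on the 3 control proximal maxilla arrays and 11.77, 11.75 and 12.87 on the mutant ones. At the distal end it read 13.19, 12.72 and 13.63 in controls and 11.93, 11.70 and 13.10 in mutants. Every mutant proximal array lay above every control, and in the distal maxilla the groups overlapped through mutant number 3. In mutants Krt15 rose in the proximal maxilla by 1.998 ± 0.38 (adjusted p = 0.00285), 3.99-fold, and its distal difference was -0.94 ± 0.38 (adjusted p = 0.17). Without the maxilla arrays of mutant number 3 the values were 1.63 ± 0.33 (adjusted p = 0.00698) and -1.37 ± 0.33 (adjusted p = 0.0178), so the distal fall was then called.

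Krt15 in the distal mandible read 12.95, 13.29 and 12.83 in controls and 12.76, 12.92 and 13.35 in mutants. In the proximal mandible it read 11.78, 11.0004 and 12.27 in controls and 12.64, 12.77 and 12.74 in mutants. The distal groups overlapped, and all 3 mutant proximal arrays lay above all 3 controls. The differences were -0.02 ± 0.38 (adjusted p = 0.986) distally and 1.03 ± 0.38 (adjusted p = 0.0655) proximally, so neither was called. The mutant arrays thus had less of a distal to proximal difference: distal minus proximal was 1.34 in the control mandible and 0.29 in the mutant, and 3.05 and 0.11 in the maxilla. The difference between ends in the genotype effect was -1.99 ± 0.38 (adjusted p = 0.048). It lost its call in 22 of the alternatives, with adjusted p of 0.0505 to 0.117, 19 of them each leaving out 1 array, and without the maxilla arrays of mutant number 3 it was -2.02 ± 0.31 (adjusted p = 0.00624).

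Krt5, the type II partner of Krt14, read 9.41, 7.90 and 9.54 on the control proximal maxilla arrays and 10.86, 10.38 and 11.86 on the mutant ones. Krt14 read 9.92, 8.29 and 9.83 and 10.87, 10.43 and 11.85 on the same arrays. In both genes control number 2 was the lowest array and mutant number 3 the highest, and the groups did not overlap. Krt5 rose by 2.08 ± 0.41 (adjusted p = 0.00327), 4.24-fold, and Krt14 by 1.70 ± 0.42 (adjusted p = 0.0136), 3.26-fold. Without the maxilla arrays of mutant number 3 the changes were 1.67 ± 0.39 (adjusted p = 0.0165) for Krt5 and 1.30 ± 0.41 (adjusted p = 0.0681) for Krt14, so the call of Krt14 was lost. It was also lost without control proximal maxilla number 2. With only these 6 arrays in the fit, Krt5, Krt10, Krt14 and Krt15 all missed the threshold, with adjusted p of 0.0997, 0.0753, 0.144 and 0.0595.

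Krt5 in the distal maxilla read 11.9997, 11.61 and 12.67 in controls and 11.28, 11.49 and 12.29 in mutants, and Krt14 12.08, 11.64 and 12.85 and 11.40, 11.62 and 12.40. The groups overlapped in both genes, and the differences were -0.41 ± 0.41 (adjusted p = 0.578) and -0.39 ± 0.42 (adjusted p = 0.612), or -0.71 ± 0.39 (adjusted p = 0.276) and -0.68 ± 0.41 (adjusted p = 0.314) without the maxilla arrays of mutant number 3. Distal mandible arrays gave Krt5 values of 11.69, 12.24 and 11.87 in controls and 12.35, 12.88 and 12.96 in mutants, and Krt14 12.01, 12.61 and 12.25 and 12.76, 13.21 and 13.19. All 3 mutant arrays lay above all 3 controls there, at 0.80 ± 0.41 (adjusted p = 0.199) and 0.77 ± 0.42 (adjusted p = 0.234). In the proximal mandible Krt5 read 10.74, 10.39 and 11.08 and 11.18, 11.87 and 11.48, and Krt14 10.73, 10.47 and 10.98 and 11.19, 12.19 and 11.49, again without overlap, at 0.78 ± 0.41 (adjusted p = 0.204) and 0.89 ± 0.42 (adjusted p = 0.149). The mean over the 4 regions was 0.81 ± 0.20 (adjusted p = 0.00356) for Krt5, 0.74 ± 0.21 (adjusted p = 0.00769) for Krt14 and 0.52 ± 0.19 (adjusted p = 0.0371) for Krt15. That of Krt15 was lost in 13 alternatives, among them leaving out mutant distal maxilla number 3. Without the maxilla pair the means were 0.64 ± 0.18 (adjusted p = 0.0107), 0.57 ± 0.19 (adjusted p = 0.0249) and 0.32 ± 0.16 (adjusted p = 0.115) for Krt5, Krt14 and Krt15.

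Beside these values, 5 of 24 tested epithelial identity genes were also higher in the mutant proximal maxilla and 0 lower, while the median over the 24 was -0.23. The 5 were Grhl3, Ovol1, Perp, Sfn and Trp63, the last being the transcription factor that maintains basal cells, and Trp63 changed by 1.38 ± 0.32 (adjusted p = 0.00985). Only Grhl3 and Perp of the 24 rose there without the maxilla arrays of mutant number 3, and Trp63 was at 1.08 ± 0.32 (adjusted p = 0.0559). The log2 of the summed signal of the 24 genes was 14.54 to 15.05 on the control proximal maxilla arrays and 14.35 to 14.78 on the mutant ones. In the proximal mandible 12 of the 24 rose, among them Trp63, and 0 fell, with a summed level of 13.08 to 13.53 in controls and 13.90 to 14.32 in mutants. Distally in the mandible 8 rose and 0 fell, at 14.47 to 14.66 and 14.73 to 15.11. Limma called 0 of 24 in the distal maxilla, with 9 at an unadjusted p under 0.05, at 15.35 to 15.74 and 15.07 to 15.33, and without the pair 1 rose and 1 fell. The part of these markers in the keratin changes was not tested.

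The basal keratins were higher distally in controls. In the control maxilla Krt5 differed by 3.15 ± 0.41 (adjusted p = 3.7e-05), 8.85-fold, Krt15 by 3.05 ± 0.38 (adjusted p = 2.62e-05), 8.29-fold, and Krt14 by 2.85 ± 0.42 (adjusted p = 0.000125), 7.19-fold. In the control mandible the values were 1.56 ± 0.42 (adjusted p = 0.0313) for Krt14, 1.34 ± 0.38 (adjusted p = 0.0451) for Krt15 and 1.20 ± 0.41 (adjusted p = 0.103) for Krt5, which was not called. Deviations of same-numbered arrays correlated here at a lowest r of 0.33, though the labels do not say what a replicate number stands for. With the number as a block Krt5 was called, at 1.20 ± 0.34 (adjusted p = 0.0352), as were Krt7 at 0.69 ± 0.20 (adjusted p = 0.038) and Krt24 at 0.56 ± 0.16 (adjusted p = 0.038). Krt14 lost this call whichever of the 6 arrays was left out, and Krt15 without any 1 of 5 of them, with no filter or with probe sets averaged. Between the control jaws Krt5 was higher in the mandible, by 0.81 ± 0.29 (adjusted p = 0.034), and it lost this call without any 1 of 7 arrays. With the block Krt15 at 0.70 ± 0.22 (adjusted p = 0.0154), Krt14 at 0.74 ± 0.26 (adjusted p = 0.032), Krt4 at 0.93 ± 0.24 (adjusted p = 0.00474) and Krt75 at 0.34 ± 0.12 (adjusted p = 0.032) were called higher in the mandible too. Deviations of same-numbered arrays correlated between the control jaws at a lowest r of 0.12. The probe set used for Krt14 is of a kind that can cross-hybridise, and its 3 probe sets had the same sign in 10 of 10 comparisons.

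**Figure D3:**
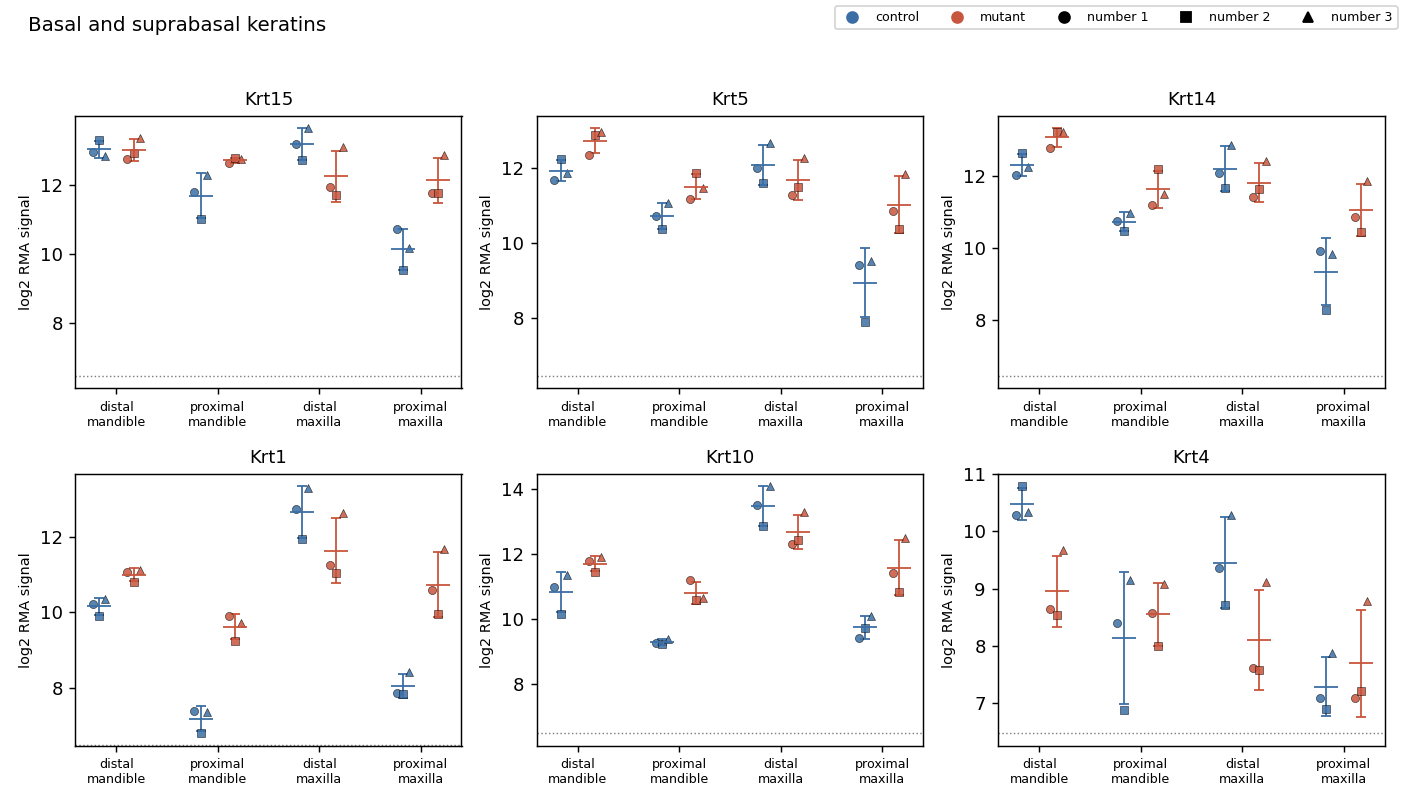
Log2 RMA signal of 3 basal keratins (Krt15, Krt5, Krt14) and 3 suprabasal keratins (Krt1, Krt10, Krt4) on each array by region (blue controls, red mutants; circle, square and triangle for numbers 1, 2 and 3), with mean ± SD, n = 3; the dotted line is the highest filter level of any array, 6.47. All 3 mutant proximal maxilla arrays lie above all 3 controls for each gene except Krt4.

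Among suprabasal keratins, Krt1 and Krt10, the pair made by skin-like cells just above the basal layer, rose at both proximal ends. Krt1 read 7.37, 6.78 and 7.36 on the control proximal mandible arrays and 9.91, 9.24 and 9.71 on the mutant ones. In the proximal maxilla it read 7.86, 7.84 and 8.42 and 10.59, 9.95 and 11.68. Every mutant array lay above every control at both proximal ends, by more than a log2 unit. Krt1 rose by 2.45 ± 0.41 (adjusted p = 0.000305), 5.46-fold, in the proximal mandible and by 2.70 ± 0.41 (adjusted p = 0.000474), 6.48-fold, in the proximal maxilla, where it was 2.23 ± 0.31 (adjusted p = 0.00042) without mutant number 3.

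At the distal ends Krt1 read 10.22, 9.90 and 10.34 in control and 11.07, 10.80 and 11.13 in mutant mandibles. It read 12.76, 11.94 and 13.32 in control and 11.26, 11.04 and 12.63 in mutant maxillae. The mutant mandible arrays all lay above the controls, and the maxilla groups overlapped through mutant number 3. The differences were 0.84 ± 0.41 (adjusted p = 0.176) in the distal mandible and -1.03 ± 0.41 (adjusted p = 0.161) in the distal maxilla, and the latter was -1.53 ± 0.31 (adjusted p = 0.00769) without mutant number 3. Distal minus proximal was 2.98 in the control mandible and 1.38 in the mutant, and 4.63 in the control maxilla and 0.90 in the mutant. The genotype effect differed between the ends by -2.67 ± 0.41 (adjusted p = 0.0177) and by -2.68 ± 0.29 (adjusted p = 0.000518) without the maxilla arrays of mutant number 3. It missed the threshold without mutant distal mandible number 2, at -2.62 with an adjusted p of 0.0513, the 1 alternative of those run that did so.

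Krt10 read 9.26, 9.21 and 9.37 on the control proximal mandible arrays and 11.19, 10.57 and 10.65 on the mutant ones. In the proximal maxilla it read 9.40, 9.70 and 10.09 and 11.41, 10.82 and 12.49. The groups were apart at both proximal ends, and the control mandible arrays lay close together. Krt10 rose by 1.52 ± 0.38 (adjusted p = 0.00706), 2.87-fold, and by 1.85 ± 0.38 (adjusted p = 0.00454), 3.6-fold, the latter being 1.39 ± 0.33 (adjusted p = 0.0182) without the maxilla arrays of mutant number 3. In the distal mandible it read 10.98, 10.13 and 11.35 in controls and 11.77, 11.44 and 11.89 in mutants, and in the distal maxilla 13.49, 12.85 and 14.08 and 12.31, 12.42 and 13.29. The mutant mandible arrays lay above the controls, while the maxilla groups overlapped, and the differences were 0.88 ± 0.38 (adjusted p = 0.127) and -0.80 ± 0.38 (adjusted p = 0.231). Without that pair the distal maxilla value was -1.11 ± 0.33 (adjusted p = 0.0457), a called fall. Over the 4 regions the mean change was 1.24 ± 0.20 (adjusted p = 9.42e-05) for Krt1 and 0.86 ± 0.19 (adjusted p = 0.00129) for Krt10, and without the pair 0.998 ± 0.15 (adjusted p = 3.8e-05) and 0.67 ± 0.16 (adjusted p = 0.0024).

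The replicate number was also used as a block, though whether it pairs ends or jaws was not checked for these differences in the genotype effect. Only same-numbered mutant and control arrays, averaged over regions, were compared (lowest r of their deviations 0.13). With the block 4 keratins were called for the difference between ends in place of 2. The added ones were Krt10 at -1.65 ± 0.27 (adjusted p = 0.0155) and Krt4 at -1.85 ± 0.34 (adjusted p = 0.0265), all 4 lower distally, where 0.237% of all genes were called lower. For the difference between jaws 3 were called in place of 1, the added ones being Krt1 at 0.81 ± 0.26 (adjusted p = 0.0488) and Krt19 at 0.94 ± 0.30 (adjusted p = 0.0488), all 3 higher in the mandible, where 4% of all genes were called higher. Without the maxilla arrays of mutant number 3 the counts were 6 for the ends (Krt1, Krt10, Krt15, Krt25, Krt73 and Krt79) and 7 for the jaws, where 0.222% of all genes were called lower distally and 2.32% higher in the mandible. Krt25 among the 6, and Krt25, Krt27 and Krt28 among the 7, passed the filter only with the help of distal maxilla arrays on which they were high.

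Along the control jaws the same pair was higher distally. In the control maxilla Krt1 was higher distally by 4.63 ± 0.41 (adjusted p = 7.13e-07), 24.8-fold, and Krt10 by 3.75 ± 0.38 (adjusted p = 2.56e-06), 13.4-fold. In the control mandible the differences were 2.98 ± 0.41 (adjusted p = 0.000167), 7.92-fold, and 1.54 ± 0.38 (adjusted p = 0.0192), 2.9-fold. The call of Krt10 in the mandible was lost without any 1 of 5 arrays, and that of Krt1 was not lost. Both were lower in the control mandible than in the control maxilla, Krt1 by -1.69 ± 0.29 (adjusted p = 0.000134) and Krt10 by -1.55 ± 0.27 (adjusted p = 0.000147).

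Genes that work with these keratins were described from lists drawn up by their known roles. Of 17 tested genes of desmosomes and of the plaques that anchor keratin filaments, 5 rose and 0 fell in the mutant proximal maxilla, Col17a1, Dsc3, Dsg1a, Pkp1 and Pkp3. The desmosomal cadherin Dsg1a changed by 2.47 ± 0.46 (adjusted p = 0.00251), the plaque protein Pkp1 by 1.62 ± 0.36 (adjusted p = 0.00729) and the hemidesmosomal collagen Col17a1 by 1.57 ± 0.34 (adjusted p = 0.00602). These were the 3 that rose without the maxilla arrays of mutant number 3, at 1.98 ± 0.42 (adjusted p = 0.00983), 1.28 ± 0.34 (adjusted p = 0.0322) and 1.27 ± 0.34 (adjusted p = 0.0344), and in the distal maxilla 5 of the 17 then fell in place of 0. In the proximal mandible 2 rose and 1 fell, the last being the linker Dst at -0.62 ± 0.12 (adjusted p = 0.00122). Of 14 tested genes of the cornified envelope, the protein shell of the outermost cells, 3 rose in the proximal maxilla and 0 fell, Krtdap at 2.75 ± 0.57 (adjusted p = 0.00523), Calml3 at 1.36 ± 0.35 (adjusted p = 0.0192) and Tgm1 at 0.99 ± 0.31 (adjusted p = 0.0465). Without the pair Krtdap alone was called, at 2.14 ± 0.49 (adjusted p = 0.0155), and Calml3 and Tgm1 were at 1.15 ± 0.35 (adjusted p = 0.0594) and 0.69 ± 0.26 (adjusted p = 0.146), while 3 of the 14 then fell in the distal maxilla in place of 0. In the proximal mandible 2 rose and 0 fell, Krtdap at 2.50 ± 0.57 (adjusted p = 0.00402) and Tgm1 at 0.98 ± 0.31 (adjusted p = 0.0304). The medians over the proximal maxilla were 0.48 for the 17 anchor genes and 0.33 for the 14 envelope genes, and 0.03 over all genes, and without the pair 0.21, 0.30 and 0.01.

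Of the 12 other tested intermediate filament genes, which serve mesenchyme, muscle, nerve and the nuclear lamina, 0 were called in either maxilla region, with 2 distally and 3 proximally at an unadjusted p under 0.05, and without the pair 1 fell distally, Lmna. In the distal mandible 0 rose and 2 fell, Vim at -0.21 ± 0.05 (adjusted p = 0.00652) and the muscle filament Des at -1.43 ± 0.43 (adjusted p = 0.029), and in the proximal mandible Lmna fell by 0.76 (SE 0.21, adjusted p = 0.0156). Along the control maxilla 5 of the 12 were lower distally and 0 higher, among them the neurofilament gene Nefl at -3.04 ± 0.61 (adjusted p = 0.0028).

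Krt4 and Krt13 are the suprabasal pair of moist oral epithelium. Krt4 read 10.29, 10.80 and 10.34 on the control distal mandible arrays and 8.65, 8.54 and 9.67 on the mutant ones. The groups did not overlap, with all mutant arrays lower, at -1.52 ± 0.57 (adjusted p = 0.0745). It was called with array weights and with only these 6 arrays, at adjusted p of 0.0108 and 0.00721. Its mean over the 4 regions was -0.51 ± 0.28 (adjusted p = 0.159), -0.51 ± 0.17 (adjusted p = 0.0197) with the replicate block, and -0.78 ± 0.25 (adjusted p = 0.0197) without the maxilla arrays of mutant number 3. For this mean the deviations of same-numbered arrays correlated at a lowest r of 0.13. Krt4 in the distal maxilla read 9.37, 8.72 and 10.28 in controls and 7.60, 7.58 and 9.11 in mutants, at -1.35 ± 0.57 (adjusted p = 0.181), with mutant number 3 inside the control range, and without the pair Krt4 was called, at -1.86 ± 0.53 (adjusted p = 0.039).

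At the proximal ends Krt4 read 8.39, 6.87 and 9.14 and 8.57, 7.99 and 9.08 in control and mutant mandibles, and 7.09, 6.90 and 7.87 and 7.09, 7.21 and 8.78 in the maxillae. These groups overlapped, at 0.41 ± 0.57 (adjusted p = 0.68) and 0.41 ± 0.57 (adjusted p = 0.705), the latter -0.14 ± 0.53 (adjusted p = 0.936) without the pair. Krt13 read 9.25, 10.91 and 10.05 and 9.91, 10.13 and 11.03 in control and mutant distal mandibles and lay between 5.78 and 8.91 in the proximal ones. Its spread within a group was wide, and none of its 4 regional differences was called. In the maxilla they were -1.26 ± 0.74 (adjusted p = 0.328) distally and 0.26 ± 0.74 (adjusted p = 0.866) proximally, and -1.81 ± 0.80 (adjusted p = 0.169) and -0.01 ± 0.80 (adjusted p = 0.998) without the pair. In control proximal mandible number 2 both genes were at their lowest of the group, 6.87 for Krt4 and 5.78 for Krt13.

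In controls Krt13 was higher in the mandible than in the maxilla, by 2.50 ± 0.52 (adjusted p = 0.0009), and higher in the distal than the proximal mandible, by 2.75 ± 0.74 (adjusted p = 0.0332). Krt4 was higher distally in both control jaws, by 2.34 ± 0.57 (adjusted p = 0.0176) in the mandible and 2.17 ± 0.57 (adjusted p = 0.0173) in the maxilla. The distal calls depended on single arrays: in the mandible that of Krt13 was lost without any 1 of 4 arrays and that of Krt4 without any 1 of 3, and in the maxilla that of Krt4 without any 1 of 3. Leaving out any 1 of the 6 control mandible arrays left 2 to 5 keratins called in place of 7. The probe sets of Krt4 had the same sign in 10 of 10 comparisons and those of Krt13 in 9.

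The other suprabasal keratins were mostly at low levels. Krt24 read 6.95, 6.76 and 7.59 in control and 6.17, 6.50 and 6.43 in mutant distal maxillae. All 3 mutant arrays lay below all 3 controls and near the filter level. Krt24 fell there by 0.73 (SE 0.17, adjusted p = 0.0269), and by 0.77 without mutant number 3, and it lost its call without control distal maxilla number 3 or mutant distal maxilla number 1, or with only these 6 arrays in the fit.

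Krt79, a keratin of the hair canal and sebaceous duct, read 5.76, 5.38 and 5.17 in control and 7.55, 6.39 and 9.15 in mutant proximal maxillae. The groups did not overlap, and the controls all lay under the filter level. Krt79 rose by 2.26 ± 0.72 (adjusted p = 0.0496), and by 1.53 ± 0.36 (adjusted p = 0.0165) without mutant number 3. It lost its call in 10 alternatives, 5 of them each leaving out 1 array, among them mutant proximal maxilla number 3. In the distal maxilla it read 8.87, 9.15 and 10.13 in controls and 6.96, 6.39 and 10.34 in mutants, with mutant number 3 above every control. The difference was -1.49 ± 0.72 (adjusted p = 0.241), and -2.71 ± 0.36 (adjusted p = 0.000479) without that array and its proximal partner.

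Krt76, a keratin of palate and gingiva, read 9.49, 7.80 and 8.68 in control and 7.35, 8.16 and 5.97 in mutant distal maxillae. Mutant number 3 was at the level of the other regions, the groups overlapped, and the difference was -1.50 ± 0.44 (adjusted p = 0.0678), or -0.90 ± 0.40 (adjusted p = 0.169) without the maxilla arrays of mutant number 3. Krt77 read 7.46, 7.76 and 9.74 and 6.40, 6.34 and 9.31 there, at -0.96 ± 0.65 (adjusted p = 0.391), with mutant number 3 far above the other mutants, and it fell by 1.94 (SE 0.47, adjusted p = 0.018) without the pair. Krt78 and Krt80 ranged over all arrays from 6.90 to 8.11 and from 6.96 to 8.41, and none of their genotype differences was called. In the control maxilla Krt24, Krt76, Krt78, Krt79 and Krt80 were all higher distally, Krt79 by 3.95 ± 0.72 (adjusted p = 0.00107) and Krt76 by 3.04 ± 0.44 (adjusted p = 0.000105). The call of Krt78 was lost without any 1 of 3 arrays. The only probe set of Krt76 is, like that used for Krt14, of a kind that can cross-hybridise. The suprabasal Krt2 and Krt12 were not tested, with levels of at most 5.42 and 5.04.

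All 5 tested simple keratins differed between the control jaws. The starts of Krt8 and Krt18, the type II and type I pair of single-layered epithelium, are shown because both genes, which lie side by side, were lower in the control mandible. The windows are at chr15:102004343-102004592, minus strand, and chr15:102027966-102028215, plus strand, in the same build, with capitals as above.
Krt8: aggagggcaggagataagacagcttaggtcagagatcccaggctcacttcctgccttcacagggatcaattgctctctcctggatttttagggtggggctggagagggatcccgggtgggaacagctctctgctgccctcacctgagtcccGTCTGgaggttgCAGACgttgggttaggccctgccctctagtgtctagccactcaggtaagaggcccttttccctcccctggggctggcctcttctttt
Krt18: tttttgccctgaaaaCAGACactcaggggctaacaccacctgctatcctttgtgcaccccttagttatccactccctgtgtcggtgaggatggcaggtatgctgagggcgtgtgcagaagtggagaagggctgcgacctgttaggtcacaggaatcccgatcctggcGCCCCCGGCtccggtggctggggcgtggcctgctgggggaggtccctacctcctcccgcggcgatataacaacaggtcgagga
Krt8 holds CAGAC on both strands, and Krt18 holds CAGAC and GCCNNNGGC. Neither window holds TATAAA or GGGCGG.

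Krt8 read 9.70, 9.91 and 9.65 on the control distal mandible arrays and 8.90, 8.53 and 9.22 on the proximal ones. In the control maxilla it read 11.59, 11.91 and 11.75 distally and 11.55, 11.22 and 12.06 proximally. All 6 control maxilla arrays lay above all 6 control mandible arrays. Krt8 was lower in the control mandible by -2.36 ± 0.26 (adjusted p = 1.14e-06), 5.13-fold, and its distal minus proximal difference in the maxilla was 0.14 ± 0.36 (adjusted p = 0.864).

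Krt18 read 9.64, 9.97 and 9.70 and 8.78, 8.74 and 9.09 in the distal and proximal control mandible. In the control maxilla it read 11.09, 11.58 and 11.28 and 11.24, 11.20 and 11.89. Again the jaws did not overlap, and the ends of the maxilla did. Krt18 was lower in the control mandible by -2.06 ± 0.27 (adjusted p = 7.27e-06), 4.17-fold, and the maxilla ends differed by -0.13 ± 0.37 (adjusted p = 0.881).

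Krt23, a type I simple keratin, read 9.40, 8.90 and 9.77 and 7.34, 7.70 and 8.16 in the distal and proximal control maxilla. In the control mandible it read 5.79, 5.97 and 5.69 and 5.45, 5.85 and 5.70, under the filter level on every array. The jaws differed by -2.81 ± 0.27 (adjusted p = 2.74e-07), with no fold given since the mandible level is under the filter. Krt19 and Krt7, made by many simple and glandular epithelia, were also lower in the control mandible, by -1.30 ± 0.25 (adjusted p = 0.000474) and -1.21 ± 0.18 (adjusted p = 4.18e-05). Krt7, Krt19 and Krt23 were also higher distally in the control maxilla, by 1.21 ± 0.26 (adjusted p = 0.0046), 1.53 ± 0.36 (adjusted p = 0.00877) and 1.62 ± 0.38 (adjusted p = 0.00781). That of Krt19 was lost without control distal maxilla number 3 or control proximal maxilla number 2, and that of Krt23 without control distal maxilla number 3 or control proximal maxilla number 1.

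The same jaw difference held for the wider epithelial lists. Of 24 epithelial identity genes 18 were lower in the control mandible and 0 higher, and of 11 tested genes of nasal and airway epithelium 8 were lower and 0 higher. The secreted airway protein gene Bpifa1 differed by -7.69 ± 0.41 (adjusted p = 3.34e-10). The summed log2 signal of the 11 genes was 10.77 to 11.01 and 9.82 to 10.16 on the control distal and proximal mandible arrays, and 13.97 to 14.19 and 12.46 to 14.09 on the maxilla arrays. In mutants 5 of the 11 fell in the distal maxilla and 5 in the proximal maxilla, and 0 rose, with summed levels of 11.48 to 12.71 and 10.45 to 12.23, and without the pair 4 fell at each end. Their part in the simple keratin values was not tested.

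**Figure D4:**
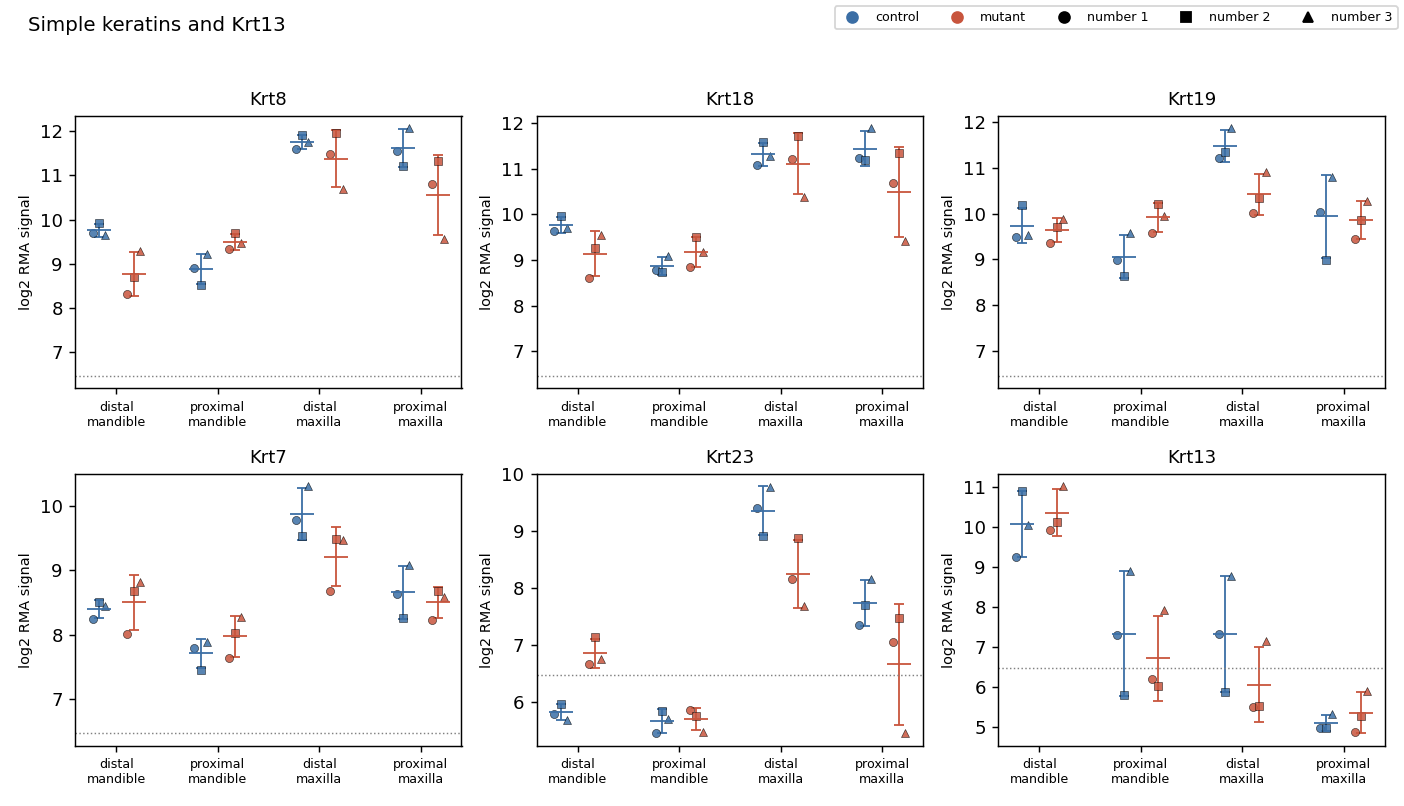
Log2 RMA signal of the simple keratins Krt8, Krt18, Krt19, Krt7 and Krt23 and of the oral suprabasal keratin Krt13 on each array by region (blue controls, red mutants; circle, square and triangle for numbers 1, 2 and 3), with mean ± SD, n = 3; the dotted line is at 6.47, the highest filter level. Krt8 and Krt18 are higher in every control maxilla array than in every control mandible array, and mutant maxilla number 3 is the lowest maxilla array of its group for both.

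With all arrays no simple keratin was called in any single region between genotypes by limma, where 2, 1, 3 and 3 of the 5 had an unadjusted p under 0.05 at the distal and proximal end of the mandible and of the maxilla, in that order. Krt8 read 8.31, 8.70 and 9.30 in the mutant distal mandible, below all 3 controls, and 9.33, 9.69 and 9.46 in the proximal mandible, above all 3 controls. The differences were -0.99 ± 0.36 (adjusted p = 0.0691) and 0.61 ± 0.36 (adjusted p = 0.268). In the mutant maxilla Krt8 read 11.48, 11.96 and 10.68 distally and 10.80, 11.32 and 9.55 proximally, with number 3 the lowest at both ends. The differences were -0.37 ± 0.36 (adjusted p = 0.564) and -1.05 ± 0.36 (adjusted p = 0.0674), and without number 3 they were -0.03 and -0.55.

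Krt18 read 8.61, 9.26 and 9.56 and 8.86, 9.50 and 9.18 in the mutant distal and proximal mandible. In the mutant maxilla it read 11.21, 11.72 and 10.39 and 10.69, 11.35 and 9.43. Number 3 was again the lowest maxilla array at both ends. The differences were -0.63 ± 0.37 (adjusted p = 0.28), 0.31 ± 0.37 (adjusted p = 0.632), -0.21 ± 0.37 (adjusted p = 0.776) and -0.96 ± 0.37 (adjusted p = 0.107) for the distal and proximal mandible and the distal and proximal maxilla. Without number 3 the maxilla values were 0.15 ± 0.27 (adjusted p = 0.765), with its sign changed, and -0.42 ± 0.27 (adjusted p = 0.439).

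Krt23 read 6.66, 7.14 and 6.76 in the mutant distal mandible, above all 3 controls, at 1.04 ± 0.38 (adjusted p = 0.067). In the mutant maxilla it read 8.16, 8.88 and 7.69 distally and 7.05, 7.47 and 5.46 proximally. All mutant distal maxilla arrays were below all controls, and number 3 was the lowest at both ends. The differences were -1.12 ± 0.38 (adjusted p = 0.108) and -1.08 ± 0.38 (adjusted p = 0.0722), and without number 3 -0.84 ± 0.26 (adjusted p = 0.0569) and -0.48 ± 0.26 (adjusted p = 0.343). The genotype effect was higher in the mandible than in the maxilla by 1.63 ± 0.38 (adjusted p = 0.0127), and by 1.20 ± 0.25 (adjusted p = 0.00855) without the maxilla arrays of mutant number 3.

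Krt19 read 11.21, 11.33 and 11.86 in control and 10.02, 10.33 and 10.90 in mutant distal maxillae, and 8.98, 8.63 and 9.57 and 9.59, 10.21 and 9.95 in control and mutant proximal mandibles. The mutant arrays were all lower in the first region and all higher in the second. The differences were -1.05 ± 0.36 (adjusted p = 0.114) and 0.85 ± 0.36 (adjusted p = 0.106), and the first was called without the maxilla arrays of mutant number 3, at -1.29 ± 0.38 (adjusted p = 0.0462). Krt7 had differences of 0.10, 0.26, -0.66 and -0.16 for the 2 ends of the mandible and of the maxilla, distal first, and -0.79 and -0.20 in the maxilla without the pair. Krt20 was not tested and never exceeded 5.83.

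Among the keratins of hair follicles and other structures, those of the inner root sheath form the rigid sheath around a growing hair. Krt25 read 7.04, 8.17 and 9.10 on the control distal maxilla arrays and 4.14, 4.09 and 10.19 on the mutant ones. Krt73 read 9.44, 9.32 and 9.70 and 7.30, 7.10 and 10.20 on the same arrays. Krt71 read 7.35, 7.88 and 8.12 and 6.55, 6.62 and 9.18. In each of these genes mutant number 3 was the highest of the 6 arrays, and mutants 1 and 2 lay below all 3 controls.

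Krt27 and Krt28 had the same order: mutant number 3 read 8.55 and 8.36, the other mutants 4.57 and 4.67 for Krt27 and 4.30 and 4.36 for Krt28. The controls read 5.64, 6.38 and 7.31 for Krt27 and 5.44, 6.61 and 7.28 for Krt28. With all arrays no inner root sheath keratin was called in the distal maxilla, and Krt25 differed by -1.96 ± 1.02 (adjusted p = 0.273). Without the maxilla arrays of mutant number 3, all 5 tested ones fell: Krt25 was -3.99 ± 0.33 (adjusted p = 1.43e-06), Krt73 -2.29 ± 0.16 (adjusted p = 3.74e-07), Krt28 -2.12, Krt27 -1.83 and Krt71 -1.20. Krt27 and Krt28 each exceeded the filter level on 3 arrays only, control distal maxilla numbers 2 and 3 and mutant distal maxilla number 3. Without the pair they would not pass the filter. Krt25 exceeded the filter level on 5 arrays, the 3 control distal maxilla arrays and this pair. Without the pair it passed only through those controls. Krt25, Krt27 and Krt28 all entered the test through arrays on which they were high, so their falls are no separate evidence.

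Leaving out that pair raised the count of keratins called lower in the distal maxilla from 1 to 13 of 32, where 3.51% of all genes were then called lower. The 13 included Krt1, Krt4, Krt10, Krt15, Krt19, Krt24, Krt77 and Krt79 beside the 5 inner root sheath keratins, and leaving out the distal array alone gave 10. Of the 5, Krt27 and Krt28 had passed the filter only with the help of the distal array left out here. Krt25 had passed it only with the help of the control distal maxilla arrays. In the proximal maxilla the count went from 6 to 5 higher, where 2.6% of all genes were called higher. For the mean over the regions it went from 5 higher and 0 lower to 4 higher and 7 lower, against 23.6% and 16.2% of all genes. Krt25, Krt27 and Krt28 were among those 7 too. Krt79 and Krt73 then changed sign in that mean, from 0.03 in both to -0.46 ± 0.17 (adjusted p = 0.0373) and -0.34 ± 0.08 (adjusted p = 0.0015).

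**Figure D5:**
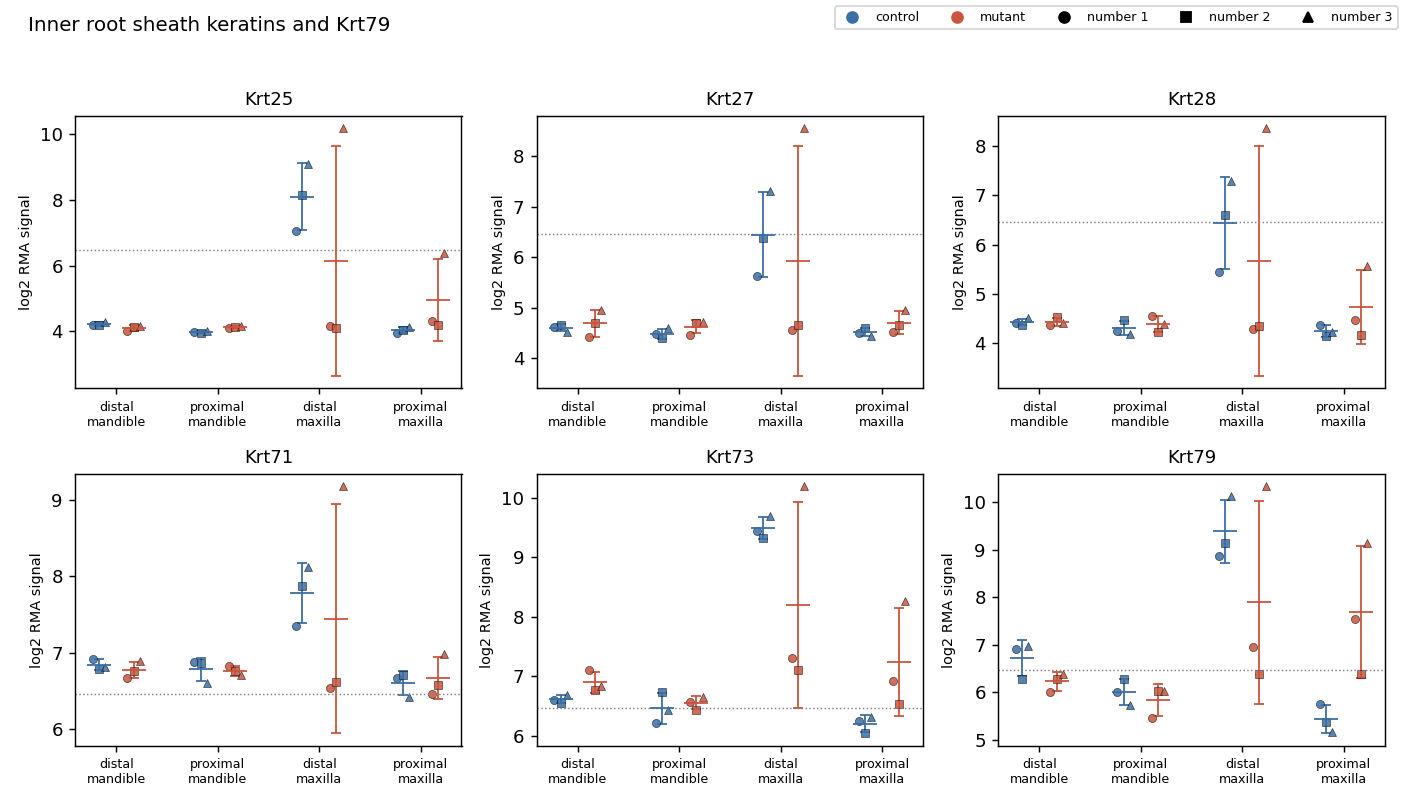
Log2 RMA signal of the inner root sheath keratins Krt25, Krt27, Krt28, Krt71 and Krt73 and of Krt79 on each array by region (blue controls, red mutants; circle, square and triangle for numbers 1, 2 and 3), with mean ± SD, n = 3; the dotted line is at 6.47, the highest filter level. In the distal maxilla mutant number 3 is the highest array of each panel and the other 2 mutants lie below all controls.

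In the proximal maxilla mutant number 3 also stood above the other mutants, at 6.39 for Krt25 against 4.30 and 4.17, and at 8.27 for Krt73 against 6.91 and 6.53. In every mandible array Krt25, Krt27 and Krt28 lay under the filter level. Along the control maxilla Krt25 was higher distally by 4.06 ± 1.02 (adjusted p = 0.0132), Krt73 by 3.29 ± 0.53 (adjusted p = 0.000343) and Krt28 by 2.19 ± 0.69 (adjusted p = 0.0478), each against a proximal level under the filter. That of Krt25 was lost without control distal maxilla number 3, and that of Krt28 without any 1 of 5 arrays. Krt25 and Krt28 had passed the filter only with the help of distal maxilla arrays on which they were high. Their differences along the maxilla, and that of Krt25 between the jaws given next, are therefore no separate evidence. Krt25 and Krt73 were lower in the control mandible than in the control maxilla, by -1.98 ± 0.72 (adjusted p = 0.0378) and -1.31 ± 0.37 (adjusted p = 0.00976), and the call of Krt25 was lost without any 1 of 11 arrays. By RefSeq, 4 of the 7 inner root sheath keratins lie with Krt14 and 3 with Krt8. This subgroup, like the other subgroups of the 23, was formed after the values were seen.

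Krt17, a keratin of periderm, appendages and stressed epithelium, read 9.48, 6.66 and 8.51 in control and 9.31, 8.24 and 10.51 in mutant proximal maxillae. Control number 2 was far below the other controls, and the groups overlapped, at 1.14 ± 0.56 (adjusted p = 0.205), or 0.56 ± 0.55 (adjusted p = 0.654) without the maxilla arrays of mutant number 3. Krt17 was higher in the control mandible by 1.13 ± 0.40 (adjusted p = 0.0333), a call lost without any 1 of 7 arrays, and higher in the distal control maxilla by 2.70 ± 0.56 (adjusted p = 0.00362). Krt75, a keratin of the hair follicle companion layer, read 8.0005, 8.59 and 8.39 in the distal and 7.44, 7.42 and 7.34 in the proximal control mandible. The ends did not overlap and differed by 0.93 ± 0.21 (adjusted p = 0.0114), a call lost without control distal mandible number 2. Krt42 ranged from 8.80 to 9.52 over all arrays, and no comparison called it.

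Hair shaft keratins harden the hair fibre itself, and the 5 tested, Krt31, Krt32, Krt81, Krt83 and Krt84, were called in 0 of 10 comparisons by limma, with 1 at an unadjusted p under 0.05 in the distal maxilla and 2 along the control maxilla. Krt83 ranged over the 24 arrays from 7.59 to 8.04. Krt32 read 8.01 in control and 7.87 in mutant distal maxilla number 3 and 6.64 to 7.23 on the other 22 arrays. Krt88 was the last tested keratin, and no comparison called it. Without control distal maxilla number 1, Krt32, Krt81 and Krt88 were called higher distally in the control maxilla, at 0.80 ± 0.24 (adjusted p = 0.0443), 0.41 ± 0.12 (adjusted p = 0.0441) and 0.47 ± 0.14 (adjusted p = 0.0453). The share of all genes called under that setting is not given here, so these calls are description only. The 12 keratins that were not tested had mean levels of 4.44 to 6.01, and 11 of them were never above the filter level of an array. The exception, Krt35, a hair shaft keratin, read 6.02, 6.23 and 6.75 in control and 4.77, 4.56 and 8.20 in mutant distal maxillae, and its value in mutant number 3 was the highest of any untested keratin. Krt9 was not analysed here.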

How the data were processed

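Total RNA from 24 pieces of embryonic mouse jaw was labelled from 5 µg and hybridised to single-colour arrays, per the labels. The values the authors deposited are log2 signals made by RMA, per the submitters' processing notes. No version is given, and the log base was read from the range of 3.29 to 14.86. Of 45101 probe sets, 34945 had 1 gene symbol. All 44 keratins matched RefSeq by gene ID, and 0 symbols changed.

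A limma model (version 3.58.1, run in R 4.3.3) gave each group its own mean over the 24 arrays (eBayes with a trend, two-sided, Benjamini-Hochberg adjustment over the 13942 genes tested in each of 10 comparisons). On simulated data with 200 genes changed in the distal mandible it recovered 90% at a log2 change of 1 and 97% at 2. The noise was drawn independently for each gene and array, and the changed genes were taken from all those tested. These rates are therefore not rates for keratins, and they do not show that an uncalled keratin was unchanged. The number of arrays, 3 a group, limits the precision. Summaries were made in Python 3.11.15 with numpy 2.4.6 and pandas 2.3.3, and figures with matplotlib 3.10.9.

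The members and gene lists were chosen with earlier results of these data known. Named throughout are Krt1, Krt2, Krt4, Krt5, Krt7, Krt8, Krt10, Krt13, Krt14, Krt15, Krt17, Krt18 and Krt19. Added to them are the 5 called keratins with the largest change in each direction of a comparison, every keratin called in a difference of genotype effects, and up to 3 genes of each other list with the largest moderated statistic. Other keratins were named after their values were seen, so that all are accounted for, and so were the genes given for small counts. Alternatives were array weights, filters, probe set averaging, renewed quantile normalization, fits of fewer arrays and replicate blocks.

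Replicate numbers come from the sample titles. Deviations of same-numbered arrays correlated above 0.1 for every number in the mean effect (lowest r 0.13). They also did between control jaws (0.12) and between control mandible ends (0.33), and not in the regional comparisons or along the control maxilla (lowest r -0.17 to 0.09). For the differences of the genotype effect the only check was that of the mean effect, all mutant against all control arrays. Pairing of ends or of jaws was not checked for them. What a shared number stands for is not stated, and differently numbered arrays were not compared as a reference, so pairing is not established. In the comparisons above 0.1 for every number and in these differences, fixed-block values that added a call stand beside the result.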

Additional observations from a re-analysis of the deposited data

Results flagged for a closer look

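Of 32 tested keratins, 3 were called for a difference in the genotype effect between ends or between jaws. For Krt1 the distal effect minus the proximal effect was -2.67 and for Krt15 -1.99, and for Krt23 the effect in the mandible minus that in the maxilla was 1.63. The call of Krt15 was lost in 22 alternatives and that of Krt1 in 1.

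In 5 further cases the mutant arrays all lay on one side of the controls in one region and all on the other side in another, and these differences were not tested. The share of all genes with such a pattern is not given here, so the 5 cases are description only. For Krt8 the effect in the proximal mandible minus that in the distal mandible was 1.60. For Krt19 the proximal mandible minus the distal maxilla gave 1.90, and for Krt23 the distal mandible minus the distal maxilla gave 2.15. For Krt25 the proximal mandible minus the distal mandible gave 0.27 and the proximal maxilla minus the distal mandible 1.03. Krt25 was under the filter level of every array in these regions except mutant proximal maxilla number 3, where it read 6.39 against a filter level of 6.33, and the change in the proximal maxilla was 0.91 with that array and 0.19 without the maxilla arrays of mutant number 3.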

How the results depend on the processing

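Of 56 called keratin values, 32 kept their call and direction under every alternative run, 13 lost the call under at least 1 alternative that keeps all arrays, 21 lost it without at least 1 array, and 0 reversed. Of 264 values that were not called, 87 changed sign under at least 1 alternative. The cause of changes in the number of keratins called was not tested, and the counts that follow stand without the share of all genes called under each setting. In the distal mandible, 0 by the reported fit, it was 6 with array weights, 6 with only the arrays compared, 3 with the replicate block and 1 with a random block of genotype and number together. In the distal maxilla, 1 by the reported fit, it was 8 with array weights, 6 with the replicate block, 0 with only the arrays compared and 0 with the filter at the 60th percentile. With only the arrays compared it was 6 in the proximal mandible, 1 in the proximal maxilla and 13 along the control mandible, where array weights gave 12. With the replicate block the proximal mandible had 4, the proximal maxilla 6, the mean effect 6, the difference between ends 4 and that between jaws 3. In the control comparisons the block gave 17 keratins between jaws, 10 along the mandible and 22 along the maxilla, and as a random block (consensus correlation 0.231) 17, 10 and 24. In comparisons where deviations of same-numbered arrays correlated above 0.1 for every number, the block ended no call of a keratin as a fixed term. As a random term it ended that of Krt15 in the mean effect. For the difference between ends the count was 1 with quantile normalization repeated, 1 with no filter and 1 with probe sets averaged, in place of 2. Without both maxilla arrays of mutant number 3, a setting chosen after seeing the data, the counts were 13 in the distal maxilla, 11 for the mean effect, 7 between jaws and 6 between ends. Leaving out 1 array at a time gave 0 to 1 keratins in the distal mandible, 2 to 3 in the proximal mandible, 0 to 10 in the distal maxilla, 4 to 9 in the proximal maxilla, 4 to 7 for the mean effect, 1 to 2 between jaws and 0 to 6 between ends. It gave 10 to 15 between the control jaws, 2 to 5 along the control mandible and 13 to 24 along the control maxilla. The 10 and the 6 were without mutant distal maxilla number 3, the 9 without mutant proximal maxilla number 2, and the 0 between ends without mutant distal mandible number 2. Leaving out 1 array of a group of 3 assumes that the other 2 vary like the other groups. Keratins under the filter level of 6.33 to 6.47 have levels too close to background for a fold to be read. The mean effect and the differences of the genotype effect use all arrays, so they have no value with only the arrays compared.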
